A study of Mus musculus with 2 samples.

Results

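The A-, B-, D- and E-type cyclins are the regulatory subunits that switch on the cyclin-dependent kinases (CDKs) of the cell cycle. The 9 genes described here are Ccnd1, Ccnd2 and Ccnd3 for G1, Ccne1 and Ccne2 for the G1/S transition, Ccna1 and Ccna2 for S/G2, and Ccnb1 and Ccnb2 for mitosis. They were taken from 21779 protein-coding genes, and every summit of Sap130 binding inside one of them or within 10000 bp of its ends was collected. This gave 19 of the 14886 deposited summits, a summit being the 1-base position where a peak of reads is highest. The data were 1 chromatin immunoprecipitation (ChIP) library made with a rabbit antibody to Sap130 (2 µg) and 1 input library made without antibody, both from hearts of C57BL/6 mouse embryos at E12.5 with no mutation or treatment named. Sap130 is a subunit of the Sin3 complex, which represses genes by histone deacetylation.

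D-type cyclins respond to growth signals and, with Cdk4 and Cdk6, begin the inactivation of the retinoblastoma protein. E-type cyclins with Cdk2 start DNA replication, cyclin A acts through S phase and G2, and B-type cyclins with Cdk1 drive entry into mitosis. Heart muscle cells still divide at this stage, and mouse embryos without any D-type cyclin die with heart defects. In the mouse, Ccna1 is known mainly from male germ cells, while Ccna2 is the cyclin A of most dividing cells.

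Each summit carries a score given by the authors, which is a −log10 p or q against the input. Deeper sequencing raises such a score just as stronger enrichment does. Here it was used to order summits, to set score limits within the list and to give medians over genes or summits. There was 1 ChIP library and no replicate, so no difference between genes or phases could be tested, and the depth of both libraries is unknown. Over the 14881 nuclear summits the scores ran from 2.1 to 428, with quartiles of 13.9 and 65.2 around a median of 33.3. Heart chromatin holds several cell types, so binding in fewer cells and weaker binding in each cell cannot be told apart. A peak list holds no expression values, so the tissue label was not checked against markers.

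Promoter sequences are shown because, wherever a start was annotated, the highest summit lay within 1000 bp of one. They come from RefSeq, build GRCm38.p6, with starts and sequence for 5 of the 9 genes, Ccnd3, Ccne1, Ccna1, Ccnb1 and Ccnb2. Each line gives the 250 bases before the start, 5′ to 3′ on the gene's strand, with capitals for the motifs searched. Ccnb2 is chr9:70421555-70421804 on the minus strand, Ccnb1 is chr13:100786487-100786736 on the minus strand and Ccne1 is chr7:38107491-38107740 on the minus strand. Ccnd3, here at its start inside the longest gene model, is chr17:47593217-47593466 on the plus strand, and Ccna1 is chr3:55055056-55055305 on the minus strand.
Ccnb2: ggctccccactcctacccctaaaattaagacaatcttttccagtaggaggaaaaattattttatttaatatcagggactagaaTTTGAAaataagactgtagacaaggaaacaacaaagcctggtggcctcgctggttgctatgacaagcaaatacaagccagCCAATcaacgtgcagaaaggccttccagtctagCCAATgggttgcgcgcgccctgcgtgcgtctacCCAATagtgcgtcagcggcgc
Ccnb1: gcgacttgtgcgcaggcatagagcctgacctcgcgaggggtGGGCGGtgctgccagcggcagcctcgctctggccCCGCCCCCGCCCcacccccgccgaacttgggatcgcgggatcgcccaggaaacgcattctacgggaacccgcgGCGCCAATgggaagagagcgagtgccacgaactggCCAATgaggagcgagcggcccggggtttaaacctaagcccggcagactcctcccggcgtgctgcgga
Ccne1: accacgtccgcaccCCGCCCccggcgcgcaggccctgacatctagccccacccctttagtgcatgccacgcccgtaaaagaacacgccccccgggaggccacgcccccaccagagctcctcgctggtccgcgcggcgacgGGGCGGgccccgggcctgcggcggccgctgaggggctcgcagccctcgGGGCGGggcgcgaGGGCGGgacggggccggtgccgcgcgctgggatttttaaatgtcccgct
Ccnd3: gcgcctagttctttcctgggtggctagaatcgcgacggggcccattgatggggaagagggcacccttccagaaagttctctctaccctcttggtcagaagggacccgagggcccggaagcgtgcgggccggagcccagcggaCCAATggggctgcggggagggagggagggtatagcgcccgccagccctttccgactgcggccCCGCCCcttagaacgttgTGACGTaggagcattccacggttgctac
Ccna1: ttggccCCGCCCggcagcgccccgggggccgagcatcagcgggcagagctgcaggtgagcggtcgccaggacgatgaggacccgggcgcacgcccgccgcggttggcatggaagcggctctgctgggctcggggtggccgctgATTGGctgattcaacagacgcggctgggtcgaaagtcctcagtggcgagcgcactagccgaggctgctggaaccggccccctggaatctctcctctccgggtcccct

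The motifs searched on both strands were the cell cycle homology region CHR (TTTGAA) and its variant TTCGAA, the CCAAT box (CCAAT), 2 E2F sites (TTCCCGC and TTGGCGC), the E-box (CACGTG), the GC box (GGGCGG), the core of the CRE (TGACGT) and the TATA box (TATAAA). The window searched was 300 bp, the 250 bases shown and the 50 that follow. CHR elements are known as binding sites of the DREAM complex and CCAAT boxes as those of NF-Y, both at mitotic genes, and E2F sites are known from G1/S genes.

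The Ccnb2 promoter held 3 CCAAT boxes on the gene's own strand, beginning at -87, -54 and -21 from the start, counted with the first transcribed base as 1. It also held a CHR beginning at -167 and another beginning at 5. The second CHR stands in capitals in the first 20 bases of the transcript, ggtaTTTGAAtcgcggaccG, whose last base opens a GC box. Of all 32851 promoters of this length, 37.4% held a CCAAT box, 3.37% held 3 or more and 17.9% held TTTGAA, while 0.545% held 3 or more CCAAT boxes together with a CHR. Of the 12125 promoters with a summit within 1000 bp of the start, these shares were 36.8%, 5.20%, 9.97% and 0.718%. The Ccnb1 promoter held 2 CCAAT boxes, beginning at -99 and -67. The first of them overlapped its E2F site, read as GCGCCAA from -102, and it also held 3 GC boxes. Of promoters with a summit near the start, 14.5% held 2 or more CCAAT boxes and 4.85% held that E2F site, against 11.7% and 2.45% of all promoters.

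The Ccne1 promoter held 4 GC boxes and none of the other motifs, the E2F sites in the searched spelling included. Of promoters with a summit within 1000 bp of the start, 70.6% held a GC box and 13.2% held 4 or more, against 35.7% and 5.49% of all promoters. At Ccnd3 the window around the inner start held a CCAAT box at -108 and a CRE core at -28, and GC boxes at -46 and at 12. A CRE core was in 12.54% of promoters with a summit near the start, and in 7.51% of all promoters. The outer Ccnd3 start had 2 GC boxes and no other motif, and Ccna1 had 1 CCAAT box and 3 GC boxes. None of the 6 windows held the E-box, the TATA box, the CHR variant or TTCCCGC. In that order, these were in 10.8%, 5.30%, 2.00% and 9.38% of promoters with a summit near the start, and in 7.15%, 13.6%, 1.56% and 4.60% of all promoters. These are matches of letters and say nothing of which factor was bound. Other spellings of the motifs were not searched, so a motif not found here may be present in another form.

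In base composition the windows of 4 genes were rich in G and C beside all promoters, with 76.0% at Ccne1, 74.0% at Ccna1, 67.0% at the inner Ccnd3 start and 66.3% at Ccnb1. Ccnb2 had 51.7% and the outer Ccnd3 start 59.3%. The median was 63.3% over the 12125 promoters with a summit within 1000 bp of the start, with quartiles of 57.3% and 69.3%. Over all promoters it was 52.7%, with quartiles of 45.7% and 61.7%. Ccnb1 and both Ccnd3 starts thus lay within the quartiles of promoters with a summit near the start. The ratio of observed to expected CpG ran from 0.849 to 0.950 at the 5 starts printed above and was 0.577 at the outer Ccnd3 start. The median of this ratio was 0.810 over promoters with a summit near the start, with quartiles of 0.666 and 0.938, and 0.384 over all promoters.

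All 9 cyclin genes had at least 1 summit in reach, against 60.1% of protein-coding genes. The highest score of a gene lay in the highest 25% of all summits for 6 of the 9, against 24.3% of protein-coding genes, and below the median of all summits for Ccna1. That 24.3% counts genes without a summit too. Of the 13080 protein-coding genes with a summit, 5299 had their highest score in that 25%. The median over the 9 genes of their highest score was 105, against 54.7 over the 13080 protein-coding genes with a summit. Of the 19 summits, 11 lay inside the gene and 8 outside it. Another protein-coding gene was in reach of 10 of them, and those summits cannot be given to the cyclin alone.

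**Figure D1:**
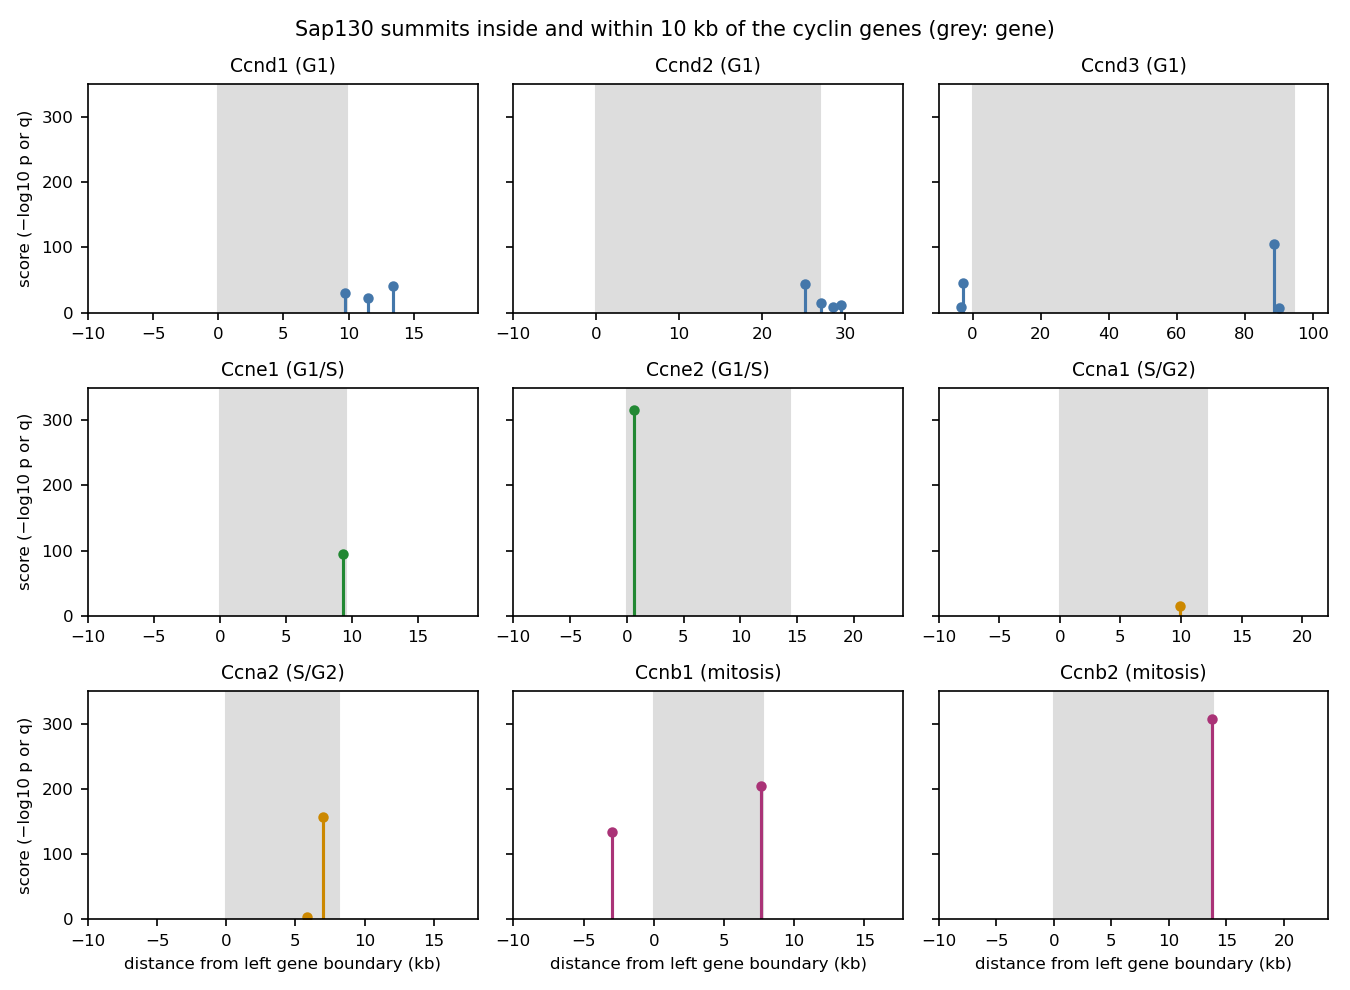
Sap130 summits at the 9 cyclin genes, as distance in kb from the left gene boundary as the chromosome is numbered (x) and score (y, −log10 p or q), with the gene in grey. The D-type genes had 3 or 4 summits each with scores up to 105, while Ccne2 and Ccnb2 had 1 summit each, with scores of 315 and 306.

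Within 10000 bp, the genes of the G1 phase had the most summits and mostly low scores. They held 11 of the 19 summits, with 3 at Ccnd1, 4 at Ccnd2 and 4 at Ccnd3. The median score of these 11 was 23.2 and 1 was in the highest 25% of all summits, whereas of the 8 summits of the other 6 genes the median was 145 and 6 were in the highest 25%. All 3 D-type genes had 3 or more summits, as did 10.7% of protein-coding genes and none of the other 6 cyclin genes. Of the 13080 protein-coding genes with a summit, 2328 had 3 or more. Ccnd3 (94639 bp) and Ccnd2 (27027 bp) were also the longest of the 9 genes, so more sequence was searched there. The number at the D-type genes depended on the reach. At 1000 bp the 3 genes held 5 summits and none had 3 or more (3.43% of protein-coding genes), and at 2500 bp only Ccnd2 did (4.68%). At 20000 bp all 3 D-type genes, Ccne1 and Ccna2 had 3 or more (18.7%). With each summit given to the nearest protein-coding gene only, Ccnd1 and Ccnd2 still had 3 or more and Ccnd3 had 2 (3.09% of protein-coding genes). Over all protein-coding genes, those with 3 or more summits had a median highest score of 72.7, and those with 1 summit 42.9.

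Ccnd1 encodes cyclin D1 (chr7:144929931-144939831). Its 3 summits formed a row across the right end of the gene. One lay 191 bp inside that end, with a score of 30.8, and 8892 bp from the neighbouring gene LTO1. The next lay 1571 bp outside with 23.2, and the highest lay 3530 bp outside with 41.3. That score ranked 6353 among 14881 summits, and 62.5% of protein-coding genes with a summit had a highest score as high or higher. The summit nearest to the gene's end was thus not the highest of the row. Just beyond the reach, a summit of 45.2 lay 14590 bp outside Ccnd1, inside LTO1.

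Ccnd2 encodes cyclin D2 (chr6:127125162-127152188), and its 4 summits also crossed the right end. The highest, 44.2, lay 1824 bp inside the gene, and the others lay 66, 1515 and 2500 bp outside with scores of 15.3, 9.40 and 12.1. All 4 also lay inside the lncRNA gene 9330179D12Rik. The row at Ccnd1 spanned 3721 bp and that at Ccnd2 4324 bp. A row of 3 or more summits within 5000 bp, a limit chosen after these values were seen, was found at these 2 cyclin genes, against 3.40% of protein-coding genes. The next summit near Ccnd2, with 42.8, was 15742 bp outside it, inside Tigar.

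Ccnd3 encodes cyclin D3 (chr17:47505051-47599689) and had the highest score of the 3, 105, at rank 1186. That summit was far inside the longest gene model, 224 bp after the inner annotated start at position 47593467. A second summit, 1814 bp after that start, had a score of 7.67. Bysl, a gene of ribosome production, lay 5640 bp from the first and 4050 bp from the second. No summit lay within 1000 bp of the outer start. The nearest, 2923 and 3359 bp before it with scores of 45.2 and 9.07, lay inside Taf8, which encodes a subunit of the general factor TFIID. At a reach of 20000 bp the highest score of Ccnd3 would be 192, from a summit 11400 bp outside the gene and inside Bysl.

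The genes of the G1/S transition had 1 summit each. Ccne2, for cyclin E2 (chr4:11190433-11204779), had a score of 315 at 661 bp inside its left end, rank 4 of 14881. Among protein-coding genes, 8 had a highest score as high or higher, Ccne2 included, and Ints8, of the Integrator complex, was 8064 bp away from the same summit. The lncRNA gene A630034I12Rik also covered it. Ccne1, for cyclin E1 (chr7:38097984-38107490), had a score of 94.4 at 167 bp after its start, rank 1651, with no other gene in reach. A highest score as high or higher was found at 2619 protein-coding genes, Ccne1 included. The 2 E-type genes thus lay far apart in rank, and 2 further summits near Ccne1, with scores of 10.04 and 86.7, were 11979 and 12643 bp outside it, inside the lncRNA gene Gm30771.

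The genes of S/G2 differed most in rank. Ccna2, for cyclin A2 (chr3:36564865-36573038), had a score of 157 at 1178 bp inside its right end, rank 247, and a second of 3.24 at 2324 bp inside. The 2 summits were 1146 bp apart, and the weaker ranked 14806, near the end of the list. Bbs7, of the cilium protein complex BBSome, lay 1282 bp from the higher one, and Exosc9, of the RNA exosome, 6133 bp from it. Exosc9 itself held a summit of 45.0, which was 12102 bp outside Ccna2. Ccna1, for cyclin A1 (chr3:55045469-55057634), had a single summit of 15.4, rank 10738, and 87.3% of protein-coding genes with a summit had a highest score as high or higher. It lay inside the gene, 291 bp before the annotated start at position 55055055, on the stretch that the lncRNA gene 4931419H13Rik also covers.

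The genes of mitosis both ranked among the highest. Ccnb2, for cyclin B2 (chr9:70407689-70421554), had a single summit with a score of 306, rank 7, at 91 bp after its start. Ccnb1, for cyclin B1 (chr13:100778739-100786486), had a summit of 203, rank 70, at 109 bp after its start. A second summit of 134 lay 3002 bp outside the other end of Ccnb1, inside Cenph, which encodes a kinetochore protein. Rnf111, a ubiquitin ligase gene, was 3961 bp from the Ccnb2 summit. Highest scores as high or higher were found at 12 protein-coding genes for Ccnb2 and at 130 for Ccnb1, each gene included.

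**Figure D2:**
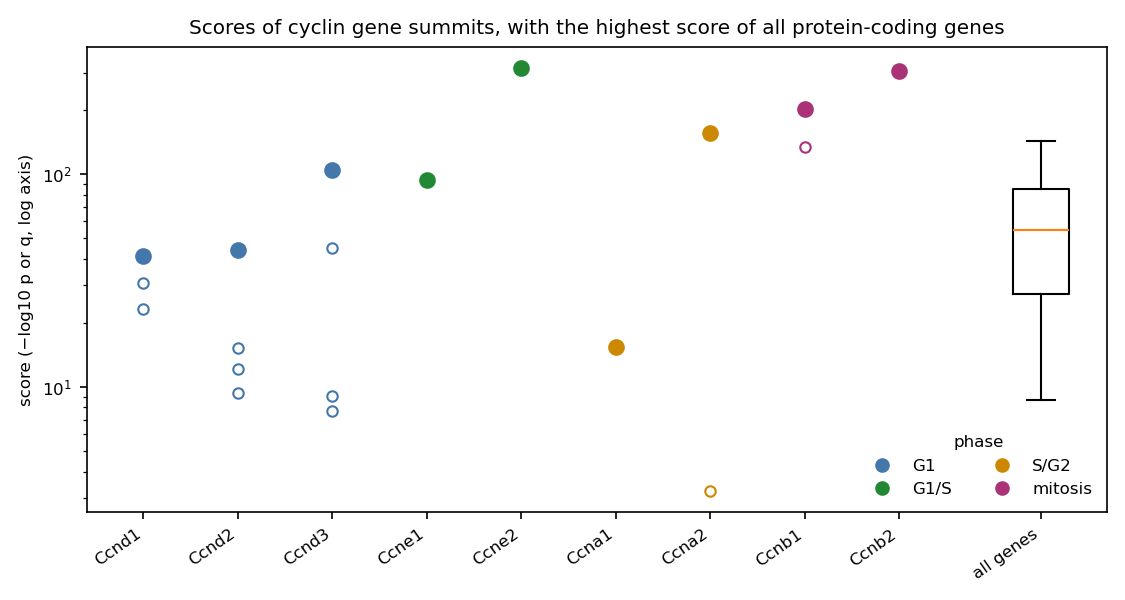
Scores of every summit of each cyclin gene (open circles) and its highest summit (filled), coloured by phase, on a log axis, with the highest scores of all protein-coding genes that had a summit as a box (quartiles and median, whiskers at percentiles 5 and 95). Ccne2, Ccnb2, Ccnb1 and Ccna2 lay above the upper whisker, and Ccnd1, Ccnd2 and Ccna1 below the median of 54.7.

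By phase, the highest scores of the genes were 41.3, 44.2 and 105 in G1, 94.4 and 315 in G1/S, 15.4 and 157 in S/G2, and 203 and 306 in mitosis. The medians of these were 44.2, 205, 86.0 and 255, where a median of 2 genes is the mean of both scores. The mitotic values lay above all of those in G1 and S/G2, while the 2 values of G1/S, and the 2 of S/G2, lay far apart. With 2 or 3 genes a phase and 1 library, this order is a description, and a difference between phases was not tested.

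Where starts were annotated, the highest summit lay close to one. All 5 genes with a start in the promoter table had a summit within 1000 bp of it, against 52.2% of 17492 protein-coding genes there. That 52.2% counts genes without any summit in reach too, whereas all 5 cyclin genes had one. The share among genes with a summit in reach was not computed for starts. At 4 of the 5 the highest summit lay after the start, by 91 bp at Ccnb2, 109 bp at Ccnb1, 167 bp at Ccne1 and 224 bp at the inner Ccnd3 start. At Ccna1 it lay 291 bp before the start. Over all 9128 genes with a summit within 1000 bp of a start, the median was 179 bp after it, with quartiles of 104 and 244 bp. Of these summits, 82.6% lay after the start. For these genes the highest of the summits within 1000 bp of a start was taken, which need not be the highest in reach. The positions at Ccnb1, Ccne1 and Ccnd3 were within those quartiles and that at Ccnb2 was slightly nearer to the start.

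**Figure D3:**
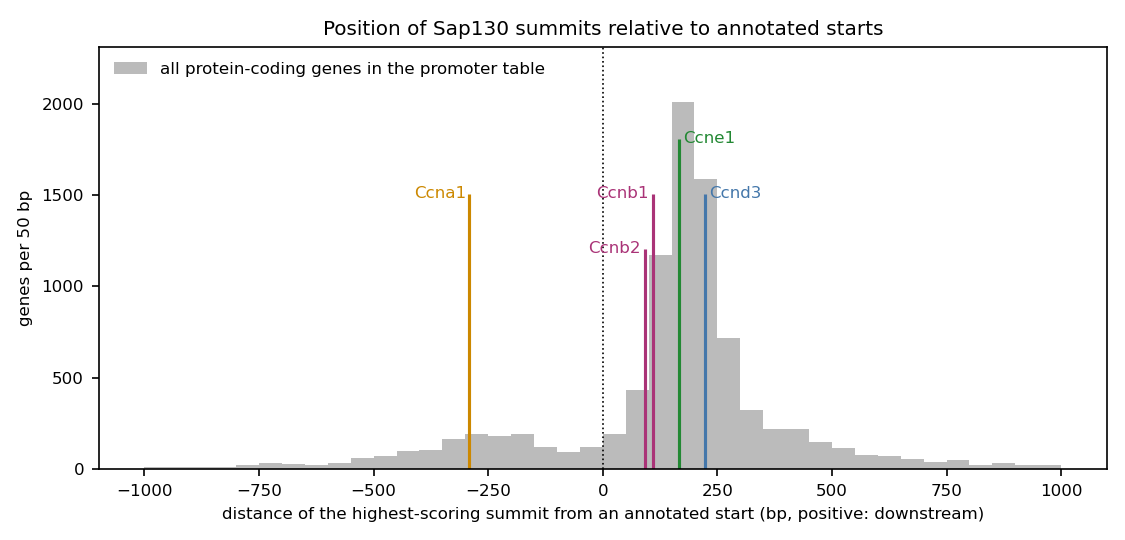
Distance in bp of the highest-scoring summit from the nearest annotated start, positive after the start, with the 5 cyclin genes as coloured lines (heights carry no value) and protein-coding genes counted in bins of 50 bp in grey. For the genes in grey, only summits within 1000 bp of a start were considered. Ccnb2, Ccnb1, Ccne1 and Ccnd3 lay after the start, as most genes did, at 91 to 224 bp, and Ccna1 lay 291 bp before it.

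For Ccnd1, Ccnd2, Ccne2 and Ccna2, distances are to the nearer gene boundary. Counting boundaries for all, 6 of the 9 genes had a summit within 1000 bp of one, against 48.4% of protein-coding genes. All 9 had a summit in reach, however. Of the 13080 protein-coding genes with a summit in reach, 10532 had one within 1000 bp of a boundary, a larger share than among the cyclin genes. The exceptions were Ccna2, with its summits 1178 and 2324 bp inside, Ccna1, at 2288 bp inside, and Ccnd3. Exons and introns were not used here.

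RefSeq lists the pseudogenes Ccnb1-ps, Ccnb2-ps and Ccnd3-ps. Their likeness to the genes was not measured, and no source used here gives the treatment of multiply matching reads. The nearest summits to them lay 472059, 5047 and 5875 bp away, so none of the 3 held a summit.

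The genes that act with the cyclins also had summits. Of 75 genes in 7 lists, 74 had one in reach, against the 60.1% of all protein-coding genes given above, and the exception was Ccnb3, which encodes a meiotic cyclin B. Scores and medians of the lists count every summit in reach, also those inside a neighbouring gene. All 4 partner kinases had one, with a median highest score of 92.9. Cdk1, the kinase of cyclin B, had 155 and Cdk4, a kinase of cyclin D, 102. The 8 genes of the switch that turns Cdk1 on had a median of 98.8, among them Wee1, an inhibitory kinase, with 263 and Cks2, a small CDK-binding subunit, with 163 from a summit 918 bp outside the gene. The 7 CDK inhibitor genes had summits too but a median of 31.6, the lowest of the lists. Cdkn2d, an inhibitor of Cdk4 and Cdk6, had 112 from a summit inside its neighbour Kri1 and 38.4 inside the gene itself, and Cdkn1b, for p27, had 39.9.

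Genes of transcription control in the cycle were covered in the same way. The 13 genes of E2F factors and pocket proteins had a median of 84.2, with 210 at E2f8, a repressor, and 194 at E2f1, an activator. The 7 genes of the MuvB core and its partners had a median of 77.5, with 116 at Foxm1, a factor of mitotic genes, and 91.9 at Rbbp4, which also belongs to the Sin3 complex. That median came from a summit 3806 bp outside its gene, whose highest score inside was 12.0. The 19 genes of cyclin degradation had a median of 91.7, with 296 at Fbxo5, which inhibits the anaphase-promoting complex, and 164 at Anapc10, one of its subunits, from a summit 256 bp outside the gene and inside Abce1. The 17 other cyclin genes had a median of 66.7, 16 of them with a summit. Ccng2, for cyclin G2, had 169 from a summit 161 bp outside the gene, and Ccnt1, the cyclin of Cdk9, had 127 from a summit inside Kansl2 and 106 inside itself. The median of 105 over the A-, B-, D- and E-type genes was above that of each of these lists, and the spread of single genes within the lists overlapped it. That median is the score of a single gene, Ccnd3. The genes and lists were chosen with earlier results of these data known, so this order is a description only.

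**Figure D4:**
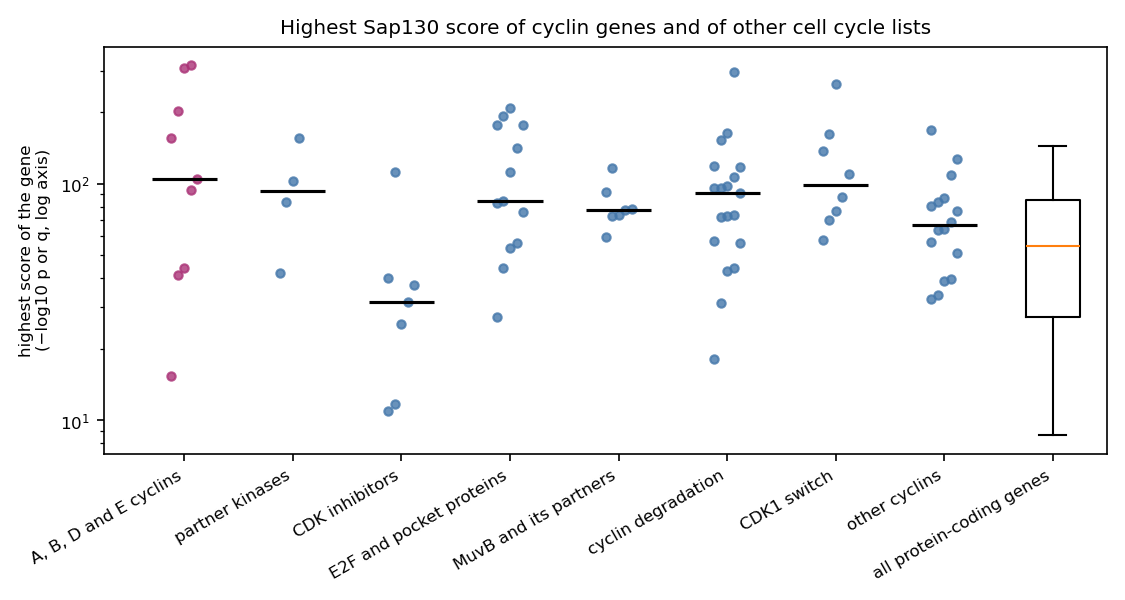
Highest Sap130 score of each gene (points, log axis) in the 9 cyclin genes and 7 other cell cycle lists, with the median as a line, and all protein-coding genes with a summit as a box (quartiles and median, whiskers at percentiles 5 and 95). Medians ran from 105 for the A-, B-, D- and E-type cyclins to 31.6 for the CDK inhibitors, against 54.7 for all genes.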

How the data were processed

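Binding was measured in 1 Sap130 ChIP library, with 1 input library as control, and the labels give no replicate. Per the submitters' processing notes, the tools were Bowtie 1.1.2 and MACS2 2.1.0.20140616 and the build was GRCm38 (mm10). How both were set is not given in the sources used here. For each summit a score was deposited by the authors as a −log10 p-value or q-value. It was read as such from its values, and which of both it is was not settled. Read counts were not used here, so the depth is unknown.

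From the list, summits within 10000 bp of each protein-coding gene of a RefSeq GRCm38.p6 table were counted, each for every gene in reach. Genes off the named nuclear chromosomes, or starting in the first 3 Mb of one other than Y, were left out as likely scaffolds. Of the 49997 RefSeq genes of all types, 21779 were protein-coding and passed this filter. Promoter windows span 250 bases before to 50 after a start. All 75 listed symbols matched, 1 of them by a synonym. The text names all members, the genes sharing their summits, the nearest summits beyond the reach where one lay within 20000 bp, and of each list the 2 genes of highest score and up to 2 without a summit.

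The members and lists were chosen with earlier results of these data known. No test was run, since genes are not replicates. Assignment of summits to genes was tested on simulated data with 200 genes. Alternatives were other reaches, score limits, merging within 500 bp and the nearest gene only. Computation used Python 3.11.15, numpy 2.4.6, pandas 2.3.3 and matplotlib 3.10.9.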

Additional observations from a re-analysis of the deposited data

How the results depend on the processing

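All 9 genes kept a summit at a reach of 1000, 2500, 5000 and 20000 bp, with summits merged within 500 bp, and with each summit given to the nearest protein-coding gene only. In that order, the shares of all protein-coding genes were 55.0%, 55.9%, 57.4%, 64.0%, 60.0% and 52.4%. With summits at or above the median score 8 genes had one (41.9% of protein-coding genes), and with the highest 25% 6 (24.3%). The 19 summits became 12 at a reach of 1000 bp, 10 at or above the median score and 7 in the highest 25%, where protein-coding genes with a summit numbered 5299. By construction, weaker genes drop out there. The 3 genes with 3 or more summits became 0 at 1000 bp, 1 at 2500 bp and 5 at 20000 bp. They became 0 at or above the median score and in the highest 25%, an alternative chosen after seeing the data. In that order, the shares of all protein-coding genes were 3.43%, 4.68%, 18.7%, 2.02% and 0.404%. With the highest 25%, only Ccnd3 kept a summit in G1 and only Ccna2 in S/G2. The median highest scores of 105 and 157 there were thus those of single genes. At or above the median score, Ccna2 was again the only S/G2 gene left, with 157. The median highest score in G1 became 45.2 at 20000 bp. The highest score of Ccnd1 was 30.8 at 1000 and 2500 bp and 45.2 at 20000 bp. The share of genes with a summit near an annotated start, and the 26 motif matches, of which 21 lay before the start, stayed within 1.5 times. With curated transcripts only, chosen after seeing the data, 61.7% of protein-coding genes had a summit. The single ChIP library and the unknown depth limit all values.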
